A study of Mus musculus with 3 samples.

Results

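The genes that fold, oxidise and dispose of proteins in the endoplasmic reticulum (ER) were followed in mouse aortic endothelial cells (MAECs). These are the lining cells of the aorta, bought as a primary culture. The set was given as 40 gene symbols covering ER chaperones, disulfide enzymes, ER-associated degradation, the translocon and the stress sensors that control them. A row was found for 39 symbols among the 18287 genes listed. The other symbol, Vimp, is an older name of Selenos, which is in the set, so no gene was lost. All 39 are protein-coding, as are 13285 of the genes listed.

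Stranded libraries were made from polyadenylated RNA, with 1 library for each of 3 groups. The control cells carried the treatment label of a control, with no agent named. The second group received glucose oxidase, an enzyme that releases hydrogen peroxide as it oxidises glucose, at a dose of 5 mU/mL over 30 min. A further group, called the combined treatment here, received the same enzyme together with ethyl-2-hydroxybenzylamine (Et2HOBA) at 0.2 mM for 24 h. Et2HOBA scavenges isolevuglandins, reactive lipid products of oxidative stress that form adducts on proteins. Which exposure came first is not stated in the labels. The treatment labels also give no time of harvest, so any difference in timing between the treated libraries cannot be told apart from Et2HOBA. No library with Et2HOBA alone was analysed here, so an effect of Et2HOBA by itself cannot be told apart from its effect on cells given glucose oxidase. With 1 library per group, no difference has a replicate check and none was tested.

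Proteins that enter the secretory pathway pass through the translocon into the ER, where BiP and its partners, the lectin chaperones and the disulfide isomerases fold them. Chains that fail to fold are pulled back to the cytosol and degraded by the proteasome. When unfolded proteins accumulate, 3 sensors respond. ATF6 moves to the Golgi and is cut into a transcription factor by the S1P and S2P proteases, IRE1 (Ern1) splices the Xbp1 transcript, and PERK slows translation while favouring that of ATF4. ATF6 and XBP1 act on many chaperone and degradation genes, in part through the ER stress response element, whereas ATF4 acts largely on amino acid and redox genes. Endothelial cells secrete large multimeric proteins such as von Willebrand factor, which need disulfide bonds formed in this compartment.

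The element is the sequence by which this set of genes is best known, so its copies are shown first. A promoter was taken as the 300 bases from 250 before to 50 after the transcript start, from RefSeq on build GRCm38.p6, and 34 of the 39 genes had at least 1 such promoter (35 promoters, since Derl2 has 2). The letters CCAAT and CCACG with 9 bases of any kind between them, searched on both strands, were found in 39 of 32851 promoters in the whole table (0.119%) and in 10 of the 35 promoters of the set (28.6%). A match is a description of the letters, not a shown site of binding. The copies were the following, each written 5′ to 3′ on the strand that carries it, with the CCAAT and CCACG ends in capitals.
Hspa5 (chr2:34772025-34772043, plus strand): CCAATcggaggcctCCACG
Calr (chr8:84847075-84847093, plus strand): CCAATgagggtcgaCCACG
Canx (chr11:50325800-50325818, minus strand): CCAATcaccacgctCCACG
Hsp90b1 (chr10:86705638-86705656, minus strand): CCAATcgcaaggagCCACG
Hsp90b1 (chr10:86705533-86705551, plus strand): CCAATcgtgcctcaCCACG
Pdia6 (chr12:17266491-17266509, plus strand): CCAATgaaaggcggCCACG
Dnajc3 (chr14:118937827-118937845, plus strand): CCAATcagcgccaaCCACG
Creld2 (chr15:88819520-88819538, minus strand): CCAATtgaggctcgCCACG
Ero1lb (chr13:12565682-12565700, minus strand): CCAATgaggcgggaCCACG
Syvn1 (chr19:6046532-6046550, plus strand): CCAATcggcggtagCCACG
Derl3 (chr10:75893242-75893260, minus strand): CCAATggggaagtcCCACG

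The related shorter form, ATTGG and CCACG with 1 base of any kind between them, was found in 12 promoters of the table (0.0365%), and 2 of these belonged to the set (5.71% of its 35).
Dnajb11 (chr16:22857852-22857862, plus strand): ATTGGcCCACG
Herpud1 (chr8:94386377-94386387, plus strand): ATTGGgCCACG
The letters TGATGNAA, which are the core bound by ATF4 with its partners, were found in 1304 promoters of the table (3.97%) and in 1 promoter of the set (2.86%), that of Herpud1. The letters TGACGTGG, bound by ATF6 and XBP1, were found in 222 promoters (0.676%) and in none of the set. CCACG alone, which also lies inside both forms of the element, was found in 32.8% of all promoters and in 29 of the 35 (82.9%). Atf6, Derl1, Hyou1, Manf and Sec61a1 had no entry in the promoter table.

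The whole windows of 3 genes whose values are described below show where these letters lie, each read 5′ to 3′ along the gene with the matched letters in capitals. On the Calr strand the element reads as its complement, CGTGG before ATTGG. In the Herpud1 window the first capitals are the ATF4 core, also on the complementary strand, and the second are the shorter element.
Hspa5 (chr2:34771840-34772139, plus strand): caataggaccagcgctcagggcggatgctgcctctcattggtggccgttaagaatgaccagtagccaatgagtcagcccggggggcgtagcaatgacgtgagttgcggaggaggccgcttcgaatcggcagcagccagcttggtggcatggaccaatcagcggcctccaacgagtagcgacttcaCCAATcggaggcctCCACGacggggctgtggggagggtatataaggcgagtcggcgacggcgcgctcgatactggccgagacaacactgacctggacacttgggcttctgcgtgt
Calr (chr8:84846882-84847181, minus strand): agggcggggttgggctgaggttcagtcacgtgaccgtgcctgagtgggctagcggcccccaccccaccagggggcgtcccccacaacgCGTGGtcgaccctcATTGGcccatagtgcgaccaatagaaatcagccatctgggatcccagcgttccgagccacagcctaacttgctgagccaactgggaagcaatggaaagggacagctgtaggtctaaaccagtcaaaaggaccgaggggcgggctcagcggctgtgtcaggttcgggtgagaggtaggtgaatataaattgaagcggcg
Herpud1 (chr8:94386179-94386478, plus strand): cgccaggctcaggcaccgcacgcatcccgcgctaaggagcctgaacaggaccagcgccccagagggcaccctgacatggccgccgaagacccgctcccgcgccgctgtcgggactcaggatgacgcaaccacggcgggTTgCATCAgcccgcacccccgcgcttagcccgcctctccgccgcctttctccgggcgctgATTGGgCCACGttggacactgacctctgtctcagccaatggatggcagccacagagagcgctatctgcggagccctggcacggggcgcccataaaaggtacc

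Most of the 39 genes differed little from control after either treatment: 23 stayed within 0.5 log2 units of it in both comparisons. Staying within it was common among genes: 31 of the 39 did so after glucose oxidase, beside 9692 of 13285 protein-coding genes. After the combined treatment the numbers were 24 of 39 and 7891 of 13285. The share of protein-coding genes within it in both comparisons was not computed. The gene that differed most was the oxidase Ero1l. Summed over all genes listed, the libraries held 35969965 reads for control, 35005089 after glucose oxidase and 40212212 after the combined treatment. The 39 genes together made up 7190, 6688 and 7127 RPM (reads per 1000000 of these summed reads) in that order. Counts were divided by size factors of 1.03, 0.965 and 1.04. Unless stated otherwise, log2 ratios were taken after adding 10 to each normalized count, so changes of scarce genes are understated, and a gene was said to rise or fall where the ratio reached 1 in either direction. Fold differences are of normalized counts without that addition. Their 95% intervals are exact (Clopper-Pearson), computed from the reads of the compared libraries, and cover counting error only. Outside Derl3, which had 7 to 10 reads, the lowest counts of the set were 137, 149 and 253 reads in the 3 libraries, so counting error was small for nearly all of it. In these bulk libraries, fewer cells of a type and less RNA per cell cannot be told apart.

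After glucose oxidase, 1 of the 39 genes passed the limit (2.56%), the oxidase Ero1l, beside 12.7% of all genes listed and 9.30% of protein-coding genes. After the combined treatment 4 passed it against control (10.3%), where the shares were 14.7% of all genes and 16.6% of protein-coding genes. Of these 4, Ero1l, Atf6 and Ero1lb rose, in a comparison where 7.33% of protein-coding genes rose, and Sdf2l1 fell, where 9.30% fell. With total-count scaling 2 rose (Ero1l and Atf6) and 2 fell (Sdf2l1 and Calr); over all genes the split was 1217 higher and 1471 lower on the main scale and 988 and 1837 with that scaling. None passed it between the treated libraries, where 8.55% of all genes and 3.32% of protein-coding genes did. The set's share past this limit was therefore below both background shares in all 3 comparisons, but rests on 1, 4 and 0 genes. The background was not limited to genes of like counts. Both comparisons with control share the control library.

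At the lower limit of 0.5 more genes of the set were above control than below it in the combined treatment, but not after glucose oxidase. Glucose oxidase gave 4 genes higher and 4 lower, 20.5% of the set beside 27.0% of protein-coding genes (13.6% higher and 13.5% lower). The combined treatment gave 11 higher and 4 lower, 38.5% of the set beside 40.6% of protein-coding genes (19.1% higher and 21.5% lower). Between the treated libraries 4 were higher with Et2HOBA, namely Ero1l, Ero1lb, Hspa5 and Edem1, and none was lower, or 10.3% of the set beside 17.2% of protein-coding genes (5.69% higher and 11.6% lower). The median log2 ratio of the set was 0.00 after glucose oxidase, 0.10 after the combined treatment and 0.10 between the treated libraries, beside 0.04, 0.00 and -0.02 over protein-coding genes. Scaling by total counts moved the median of all genes to -0.13 in the combined treatment against control, and the median of the set there to -0.050. With that scaling the counts at the limit of 0.5 were 4 higher and 5 lower after glucose oxidase, 8 higher and 4 lower after the combined treatment, and 2 higher (Ero1l and Ero1lb, without Hspa5 and Edem1) and 0 lower between the treated libraries. It also moved the set's median between the treated libraries to 0.0089 and its genes above 0 from 28 to 20 of 39.

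The normalized counts stood in the order control, glucose oxidase, combined treatment from lowest to highest for 18 of the 39 genes (46.2%, beside 32.4% of protein-coding genes) and from highest to lowest for 9 (23.1%, beside 31.7%). With total-count scaling 13 genes stood in the first order (33.3%, beside 23.3% of protein-coding genes) and 14 in the reverse (35.9%, beside 40.3%): Ern1, Pdia4, Derl2, Dnajb9 and Dnajc10 left the first group. On the main scale the first group held 4 of the 5 sensors and activators, Hspa5, both Ero1 genes and 5 of the degradation genes. The order counts small steps too. For Dnajb9 and Derl2 the step between the treated libraries had a counting interval that included equal levels, as had the step from control to glucose oxidase for Ern1, Pdia4, Pdia5 and Ero1lb.

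**Figure D1:**
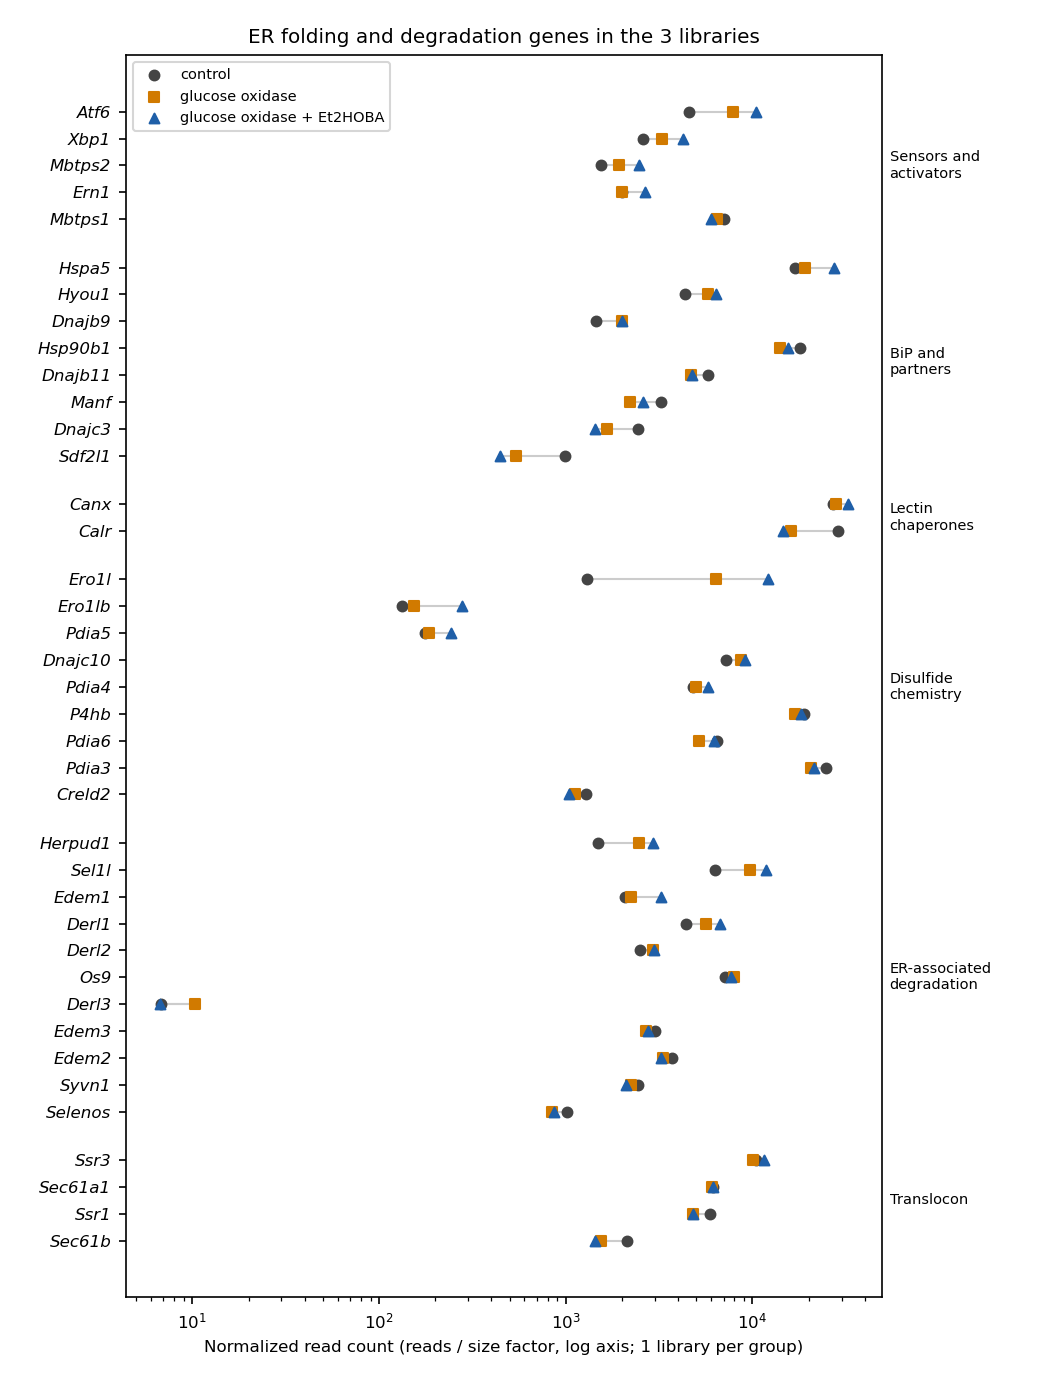
Normalized read count (reads divided by size factor, log axis) of each of the 39 genes in the 3 libraries, grouped by role; each point is 1 library. Ero1l spans the widest range, from 1305 in control to 12069 in the combined treatment, while most rows hold 3 nearby points.

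Among the stress sensors, Atf6 was the only one to rise. Atf6 (ENSMUSG00000026663.6, chromosome 1, 170704674 to 170867771, minus strand, build GRCm38) encodes the membrane-bound precursor of the ATF6 transcription factor. Control held 4736 reads, glucose oxidase 7595 and the combined treatment 10906. Normalized counts were 1.71-fold those of control after glucose oxidase (1.65 to 1.78) and 2.29-fold after the combined treatment (2.21 to 2.37), log2 ratios of 0.78 and 1.19. All 3 libraries thus differed by more than counting error, and the combined treatment was the highest.

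Xbp1, the transcription factor gene whose transcript IRE1 splices, had 2689 reads in control, 3161 with glucose oxidase and 4423 with the combined treatment, with log2 ratios against control of 0.33 and 0.71. Counts per gene do not separate the spliced from the unspliced form. Ern1, which encodes the sensor IRE1, had 2072, 1939 and 2758 reads in the same order. Its level after glucose oxidase equalled that of control within counting error (log2 ratio 0.00), and it stood 0.40 above control after the combined treatment. The proteases that cut ATF6 lay on opposite sides of control: Mbtps2, encoding S2P, had 1598, 1851 and 2577 reads (0.31 and 0.68), and Mbtps1, encoding S1P, had 7299, 6211 and 6245 reads (-0.14 and -0.23). Exons of Mbtps2 overlap those of Yy2 on the same strand over 2867 bases. The Mbtps2 count may therefore hold reads of both or lack reads of that stretch. Over these 5 genes the median was 0.31 in the first comparison with control and 0.68 in the second.

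BiP and 2 of its partners were above control in both treatments, and its other 5 partners were below it. Hspa5 (ENSMUSG00000026864.13, chromosome 2, 34771970 to 34777547, plus strand), which encodes BiP, the main ER chaperone of the HSP70 family, had 17473 reads in control, 18357 with glucose oxidase and 28410 with the combined treatment. Its normalized count was 1.12-fold that of control after glucose oxidase (1.10 to 1.15) and 1.62-fold after the combined treatment (1.59 to 1.65). The log2 ratios were 0.17 and 0.69, under the limit of 1. Most of the difference from control was therefore seen in the combined treatment, which stood 1.44-fold above glucose oxidase (1.41 to 1.47).

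Hyou1, an HSP110-family exchange factor for BiP, had 4513, 5581 and 6644 reads (log2 ratios 0.40 and 0.55 against control). Dnajb9, a J-domain partner of BiP also called ERdj4, had 1494, 1933 and 2087 reads (0.47 and 0.47). Both stood above BiP in log2 ratio after glucose oxidase and below it after the combined treatment.

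Sdf2l1 (ENSMUSG00000022769.9, chromosome 16, 17130138 to 17132383, minus strand), a cofactor that joins the ER J-domain proteins, was the only gene of the 39 to fall. Its reads numbered 1019 in control, 520 with glucose oxidase and 464 with the combined treatment, so that both treated libraries lay far below control. The normalized count was 0.546-fold that of control (0.490 to 0.607) after glucose oxidase and 0.452-fold (0.405 to 0.505) after the combined treatment, log2 ratios of -0.86 and -1.13. With a pseudocount of 100 it no longer passed the limit. Dnajc3, also called P58IPK, an inhibitor of PERK and a J-domain partner of BiP, had 2501, 1609 and 1483 reads (-0.54 and -0.76). Manf, a secreted ER stress factor that binds BiP, had 3339, 2133 and 2701 reads (-0.55 and -0.31), so its lowest level was after glucose oxidase. Dnajb11, also called ERdj3, had 5993, 4499 and 4902 reads (-0.32 and -0.30). Hsp90b1, which encodes the HSP90 paralog GRP94, had 18467, 13597 and 16102 reads (-0.35 and -0.21). The median log2 ratio of the 8 genes was -0.33 and -0.25, below that of protein-coding genes, although BiP itself was above it.

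The lectin chaperones, which hold newly glycosylated proteins, differed from each other. Calr (ENSMUSG00000003814.8, chromosome 8, 84841850 to 84846934, minus strand), encoding the soluble chaperone calreticulin, had 29710 reads in control, 15502 with glucose oxidase and 15207 with the combined treatment. The normalized count was 0.558-fold that of control (0.547 to 0.569) and 0.509-fold (0.499 to 0.519), log2 ratios of -0.84 and -0.97, just inside the limit. Scaled by total counts, Calr passed the limit in the combined treatment. Canx, encoding its membrane-bound relative calnexin, had 27793, 27212 and 33590 reads (0.07 and 0.26). So the soluble lectin was at about 0.5-fold of control in both treated libraries and the membrane-bound one was not below control in either.

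The lower Calr count changed which gene of the set was most abundant. Per kilobase of exon, Calr stood first in control at 9996 normalized counts, followed by Pdia3 at 7935, P4hb at 6609 and Canx at 5739. After glucose oxidase Pdia3 (6565), Canx (6006), P4hb (5938) and Calr (5576) lay close together. After the combined treatment Canx (6891), Pdia3 (6798), Hspa5 (6468) and P4hb (6380) stood above Calr (5084). Hspa5 was at 4004 in control and 4496 after glucose oxidase on the same scale. These levels use the length of all annotated exons, so they are approximate between genes.

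Disulfide chemistry held the widest difference of the set. Ero1l (ENSMUSG00000021831.9, chromosome 14, 45283087 to 45318771, minus strand; named Ero1a in RefSeq) encodes the ER oxidase that reoxidises protein disulfide isomerase and passes the electrons to oxygen, making hydrogen peroxide. Control held 1347 reads, glucose oxidase 6176 and the combined treatment 12535, 3 levels that do not come near each other. The normalized count rose 4.90-fold (4.62 to 5.20) after glucose oxidase and 9.25-fold (8.74 to 9.79) after the combined treatment. The combined treatment stood 1.89-fold (1.83 to 1.95) above glucose oxidase, a log2 ratio of 0.91. Against control the log2 ratios were 2.28 and 3.20. The authors' deposited table gave Ero1l log2 differences of 2.14 and 3.14 on its own scale. Per kilobase of exon it went from 247 normalized counts in control to 1211 and 2284. Its promoter window held neither form of the ER stress response element nor the ATF4 core.

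Its paralog Ero1lb (chromosome 13, 12565874 to 12611396, plus strand; Ero1b in RefSeq), known for its role in insulin-producing cells, was scarce, with 137 reads in control, 149 with glucose oxidase and 290 with the combined treatment. The first 2 levels did not differ beyond counting error (1.16-fold, 0.916 to 1.48), and the third was 2.10-fold that of control (1.71 to 2.60; log2 ratio 1.02). Of the 50-base stretches in its longest transcript, 13.9% were shared with another gene. Its call was lost with total-count scaling, on the scale of the deposited values and with a pseudocount of 100.

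The isomerases that ERO1 oxidises or that work beside it stayed within 0.5 of control. P4hb, which encodes protein disulfide isomerase itself, had 19513, 16401 and 18958 reads (-0.15 and -0.05). Pdia3, the isomerase that pairs with calreticulin and calnexin, had 25705, 19895 and 22164 reads (-0.27 and -0.22). Pdia6 had 6702, 4996 and 6503 reads (-0.33 and -0.05), with its low point after glucose oxidase. Pdia4 had 4979, 4784 and 5984 reads (0.04 and 0.26), and the scarce Pdia5 had 181, 179 and 253 reads (0.08 and 0.45). Dnajc10, also called ERdj5, a reductase that opens disulfides before degradation, had 7492, 8423 and 9493 reads (0.26 and 0.33). Creld2, a stress-induced ER protein with isomerase activity, had 1330, 1088 and 1077 reads (-0.19 and -0.31). These 7 genes ranged from -0.33 to 0.26 after glucose oxidase and from -0.31 to 0.45 after the combined treatment, beside 2.28 and 3.20 for Ero1l.

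**Figure D2:**
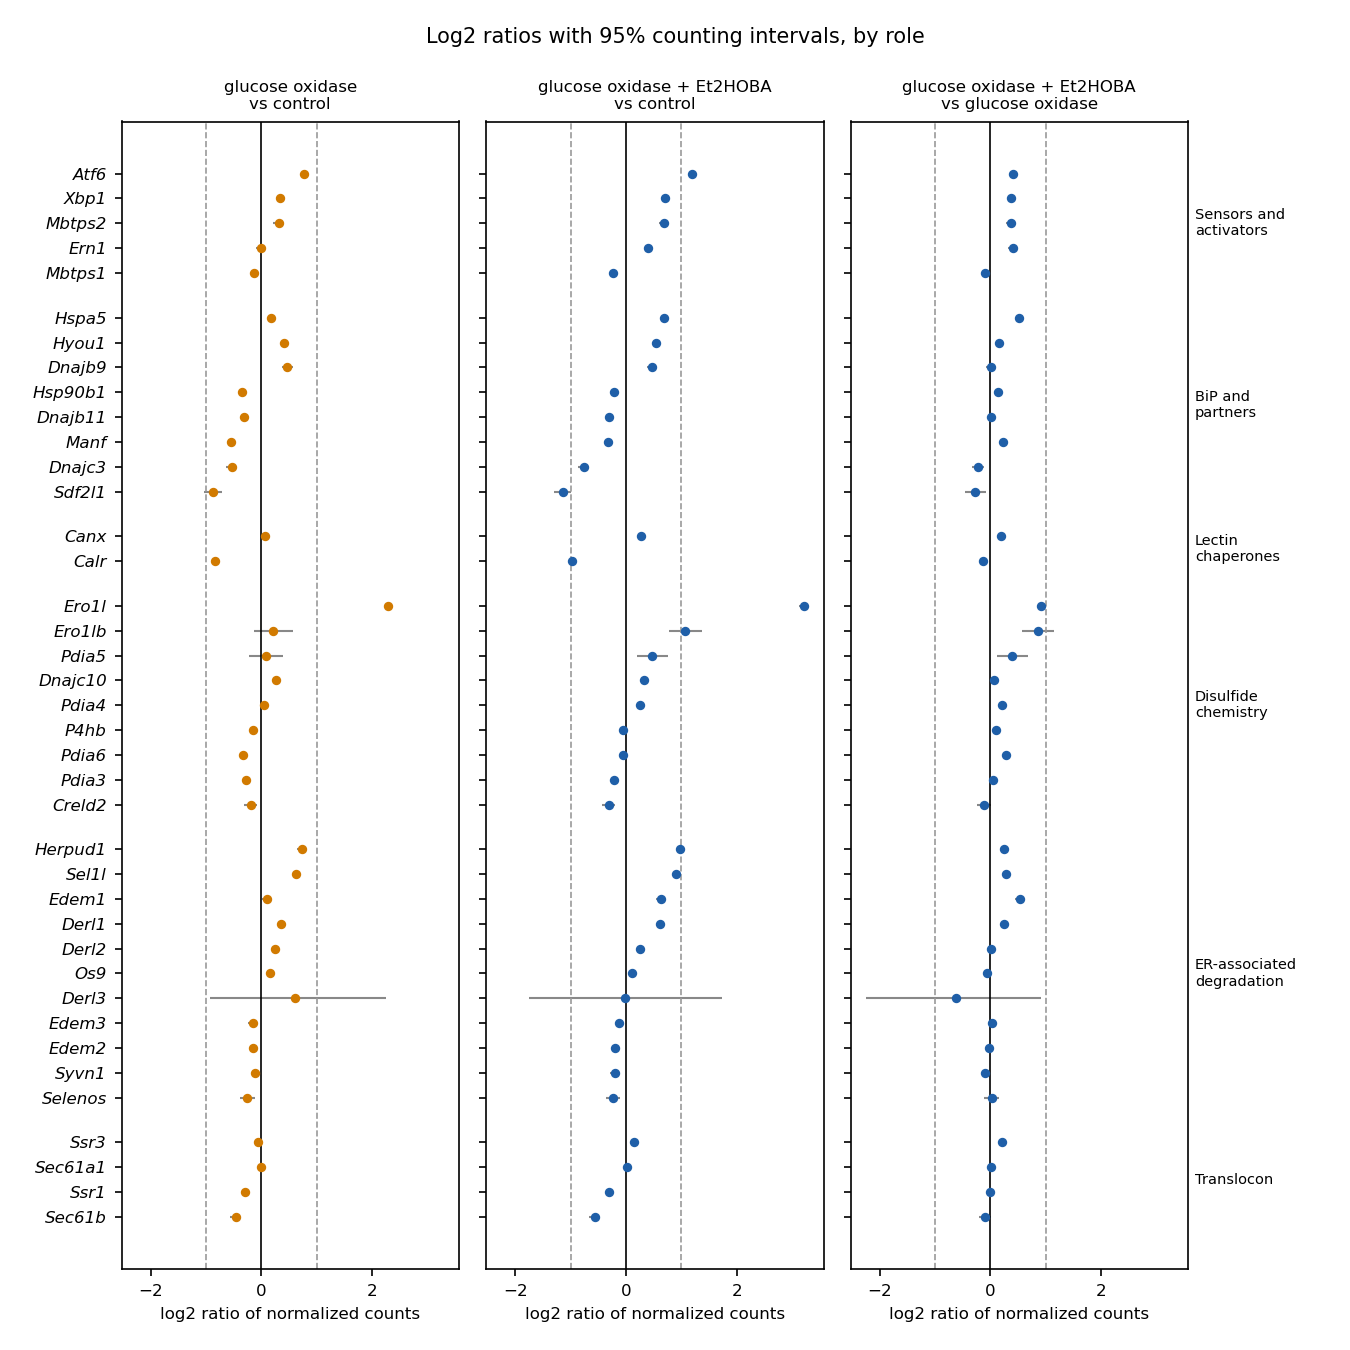
Log2 ratio of normalized counts (without a pseudocount) for each of the 39 genes in the 3 comparisons, with 95% counting intervals as grey bars; dashed lines mark the limit of 1 in either direction. Ero1l lies far to the right in both comparisons with control, Sdf2l1 and Calr farthest to the left, and Derl3 has the widest interval because of its 7 to 10 reads.

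ER-associated degradation held no gene past the limit of 1. After the combined treatment 4 of its 11 genes were above 0.5 (36.4%, beside 19.1% of protein-coding genes) and none was below -0.5 (21.5% of protein-coding genes). With total-count scaling only Herpud1 and Sel1l of the 4 stayed above 0.5. Herpud1 (ENSMUSG00000031770.16, chromosome 8, 94386438 to 94395377, plus strand), a stress-induced membrane protein that gathers the degradation complex, had 1529 reads in control, 2382 with glucose oxidase and 3045 with the combined treatment. The normalized count was 1.67-fold that of control (1.56 to 1.78) and 1.98-fold (1.86 to 2.11), log2 ratios of 0.73 and 0.98. It is the gene of the set whose promoter window, printed above, holds both the shorter element and the ATF4 core. Sel1l, the scaffold of the HRD1 ligase complex, had 6480, 9326 and 12229 reads (0.62 and 0.91). Derl1, a channel protein of the same complex, had 4533, 5423 and 6951 reads (0.35 and 0.61). Edem1, which marks misfolded glycoproteins for disposal, had 2154, 2163 and 3353 reads (0.10 and 0.63).

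The remaining degradation genes lay near control. Syvn1, the HRD1 ligase itself, had 2501, 2171 and 2193 reads (-0.11 and -0.20), below control where the scaffold was above it. Edem2 had 3834, 3210 and 3381 reads (-0.16 and -0.19) and Edem3 had 3102, 2600 and 2848 (-0.16 and -0.13), below control where Edem1 was above it. Derl2 had 2572, 2848 and 3082 reads (0.24 and 0.25). The lectin gene Os9 had 7360, 7696 and 7949 reads (0.16 and 0.10), and Selenos, a selenoprotein of the complex, had 1044, 818 and 893 (-0.25 and -0.23). Derl3, at 7, 10 and 7 reads, could not be placed: the interval of its fold difference ran from 0.297 to 3.32 in the combined treatment.

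The translocon genes were level with control or below it after glucose oxidase. Sec61a1, the channel subunit, had 6319, 5891 and 6413 reads (-0.00 and 0.01). The small subunit Sec61b had 2192, 1484 and 1490 reads (-0.46 and -0.56), and 15.3% of its stretches were shared with another gene, the highest share of the set. Of the TRAP complex, which helps chains enter the channel, Ssr1 had 6144, 4657 and 4997 reads (-0.30 and -0.31) and Ssr3 had 10774, 9660 and 12016 (-0.06 and 0.15). The sign of the small values of Sec61a1, Ssr3 and Os9 in the combined treatment turned with total-count scaling, as did those of Ern1 and Pdia4 after glucose oxidase.

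Between the treated libraries, 22 of the 39 genes were higher with Et2HOBA beyond counting error (56.4%, beside 28.7% of protein-coding genes), 6 were lower (15.4%, beside 30.5%) and 11 were not separated. With total-count scaling 18 were higher, 14 lower and 7 not separated, and the median of protein-coding genes moved to -0.11. Their shares were not recounted with that scaling. Separation by counting error also depends on read depth. The set was more abundant, with a median in control of 802 normalized counts per kilobase of exon beside 208 for protein-coding genes. The largest values after Ero1l and Ero1lb, at log2 ratios of 0.91 and 0.82, were those of Hspa5 and Edem1, both 0.52, then Atf6 (0.42), Ern1 (0.40), Xbp1 (0.38) and Mbtps2 (0.37). At the other end Sdf2l1 (-0.26), Dnajc3 (-0.22) and Calr (-0.13) were lower still with Et2HOBA than with glucose oxidase alone. With total-count scaling 8 genes changed sign here, none with a value over 0.067 on the main scale.

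**Figure D3:**
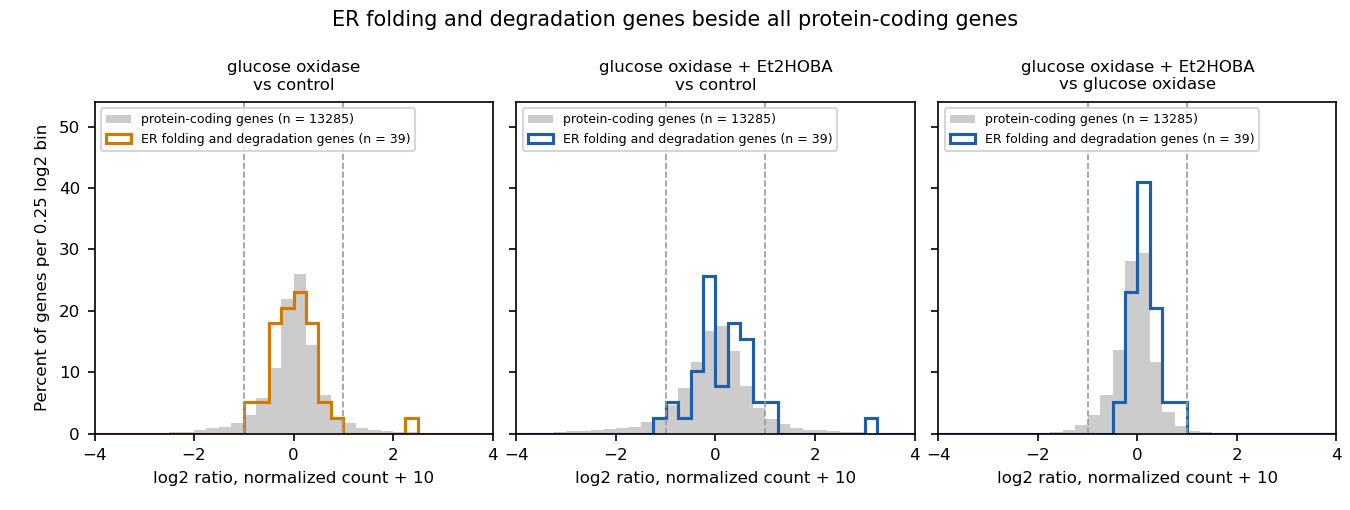
Share of genes per 0.25 log2 bin for the 39 genes (outline) and for 13285 protein-coding genes (grey), in the 3 comparisons; dashed lines mark the limit of 1. Ero1l is the separate step at the right in both comparisons with control, and between the treated libraries it has no gene beyond the dashed lines.

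The genes whose promoter window holds the full element lay on both sides of control. The 10 genes had a median log2 ratio of -0.15 after glucose oxidase and -0.13 after the combined treatment, with values from -0.97 (Calr) to 1.02 (Ero1lb) in the latter and 7 of the 10 below 0. Of these 7, Derl3 stood at -0.00 with 7 reads in control and 7 in the combined treatment, and Pdia6 at -0.05. The 24 genes with a promoter entry and without an exact match to the full element in the window had medians of 0.02 and 0.20. These 24 include Dnajb11 and Herpud1, which hold the shorter form. Hspa5 and Calr, whose windows are printed above, both hold the element, and in the combined treatment their levels were 1.62-fold and 0.509-fold those of control.

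**Figure D4:**
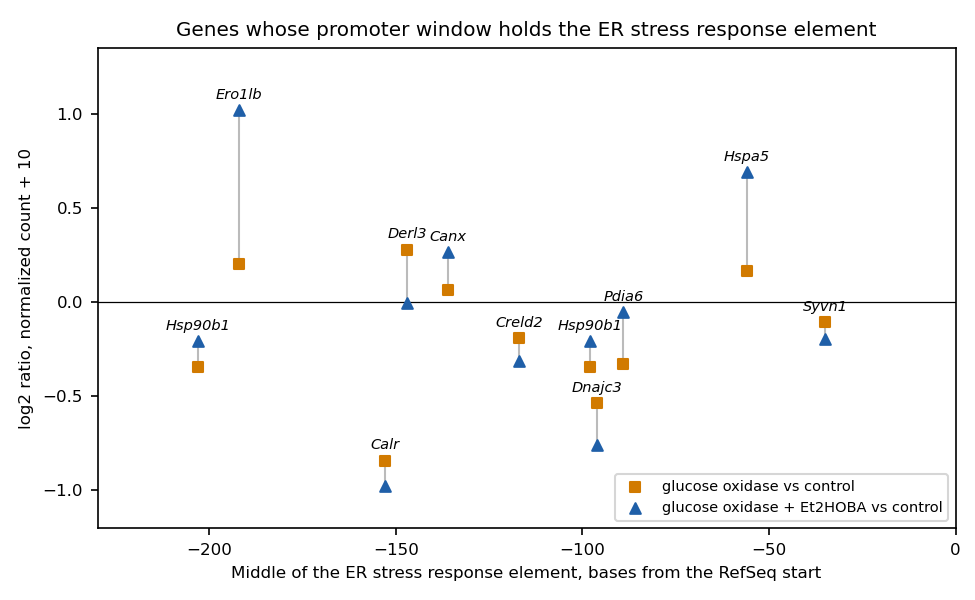
Position of the middle of the full element relative to the RefSeq start (x axis, bases) against the log2 ratio to control (y axis) for the 10 genes that hold it, Hsp90b1 with 2 copies; squares are glucose oxidase and triangles the combined treatment. Elements lie 35 to 203 bases before the start, and genes above and below 0 are found along this stretch.

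Elsewhere in the pathway, the PERK arm was the list with most genes past the limit. Of its 8 genes, 6 rose in both comparisons with control, with medians of 2.32 and 3.09. The 6 were the transcription factors Atf4 and Ddit3 (CHOP), the phosphatase subunit Ppp1r15a (GADD34), the asparagine synthetase Asns, the pseudokinase Trib3 and the glutathione-degrading Chac1. Ppp1r15a, for example, had 1449, 6356 and 11899 reads. Eif2ak3, which encodes PERK itself, had 1171, 971 and 1008 reads (-0.17 and -0.22). PERK arm is a list name here: the activity of PERK was not measured, and which kinase acted upstream of these genes was not tested.

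Among 24 other ER folding factors, Fkbp11 rose and Fkbp14 fell, and the medians were -0.03 and -0.01. Fkbp11, a membrane-anchored prolyl isomerase, had 58, 146 and 266 reads (1.28 and 2.01), passing the limit in both comparisons. Fkbp14, a prolyl isomerase that acts on collagen, had 2441, 1190 and 762 reads (-0.93 and -1.68) and passed it in the combined treatment. Among 27 other degradation genes only Herpud2, a relative of Herpud1, passed, with 1597, 2184 and 3268 reads (0.54 and 1.02). Among 11 COPII export genes only the coat subunit gene Sec24d passed, with 1085, 1897 and 2727 reads (0.90 and 1.31). None of 20 other translocon and signal peptidase genes, 11 oligosaccharyltransferase genes and 7 ER-phagy receptor genes passed in either comparison with control. Among protein-coding genes 9.30% passed after glucose oxidase and 16.6% after the combined treatment, and the share of each list in this paragraph was below these.

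Of 10 further ER stress factors, Wfs1, encoding the ER membrane protein wolframin, was the only one past the limit, with 1923, 3463 and 4880 reads (0.94 and 1.33). Of 5 transcripts known to be cut by IRE1, none fell past the limit, and Pdgfrb, with 21, 43 and 71 reads, rose in the combined treatment (1.37). In that comparison 7.33% of protein-coding genes rose and 9.30% fell.

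**Figure D5:**
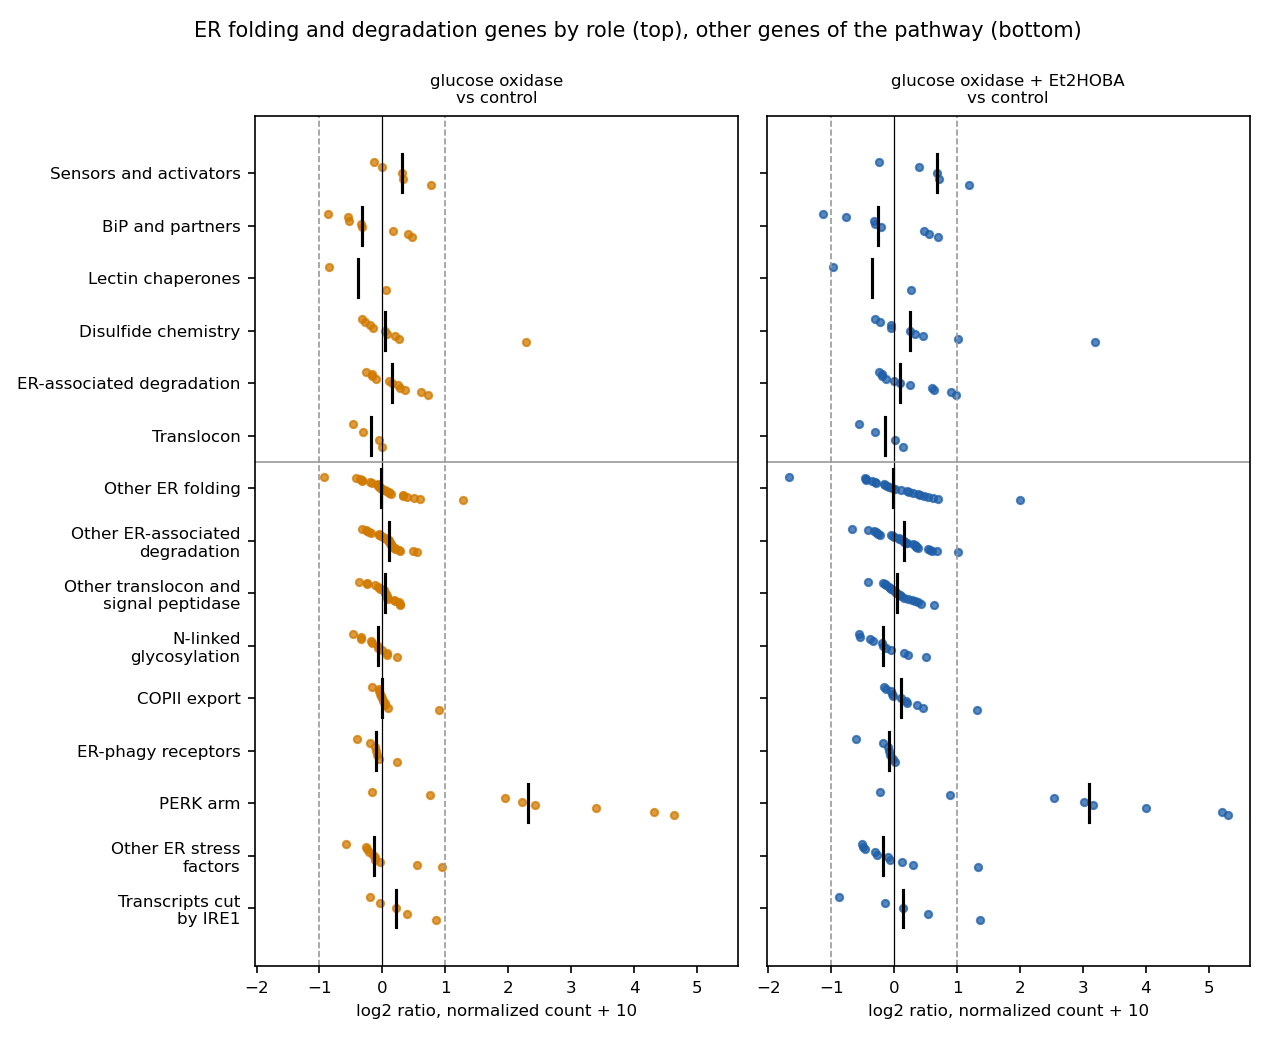
Log2 ratio of normalized count plus 10 against control for each gene of the 6 roles (top) and of 9 lists of other pathway genes (bottom); points are genes, black bars are medians and dashed lines mark the limit of 1. The PERK arm, with medians of 2.32 and 3.09, is the list whose bar lies beyond the limit.

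Markers of the cells moved with the treatments as well. All 12 endothelial markers were listed and were well counted in every library, Cdh5 with 55360, 45034 and 63665 reads, but their summed share was 9664, 6333 and 5676 RPM in control, glucose oxidase and the combined treatment. Tek, Vwf and Kdr fell after both treatments and Erg after the combined treatment. Among protein-coding genes 4.76% fell after glucose oxidase and 9.30% after the combined treatment. None of the 12 endothelial markers rose, and 7 stayed within 0.5 of control after glucose oxidase and 6 after the combined treatment. In each comparison 2 of the 12 were above 0, with Emcn at 0.33 and 0.55. The medians of the 12 were -0.36 and -0.37. Of 20 markers of smooth muscle, fibroblasts, leukocytes and mesothelium, 12 were listed, and Cnn1, Dcn, Lum, Dpt, Ptprc, Adgre1, Upk3b and Wt1 were not analysed here. The summed normalized count of the 12 was 14136, 25611 and 37552, and most of it was Cd68, with 8215, 17067 and 27799 reads, a lysosomal gene used as a macrophage marker. Cd68, Cd14, Pdgfra and Msln rose after both treatments, Myh11 after the combined treatment, and Lyz2 fell after both, whereas Acta2, Tagln, Col1a1 and Csf1r had at most 30 reads in any library. Of the 5 listed smooth muscle markers only Myh11 passed the limit, and 3 of the 5 were below control in the combined treatment. Their summed normalized count was 4856, 3714 and 3935 in control, glucose oxidase and the combined treatment. The part of all these cell markers in the results above was not tested.

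Overlap was checked for the 38 genes of the set whose ID had the same version in GENCODE M21. Exons of 10 of these overlap exons of another gene, on either strand. The remaining gene of the 39 was not checked. The setting for strand in the counting is not given in the sources used here. Reads of such pairs may have been counted together or left out. In the longest transcript of each gene, no 50-base stretch was shared with another gene for 29 of the 39, and only Sec61b, Ero1lb, Derl1 and Dnajb9 shared over 5%. Stretches of a gene outside its longest transcript were not counted, so these shares do not cover every exon overlap.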

How the data were processed

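Reads were aligned with STAR and counted with featureCounts on mm10, per the submitters' processing notes; versions are not given in the sources used here. The authors deposited read counts per gene for control and for the combined treatment, together with log-normalized values and their log2 difference, per the file headers. For glucose oxidase against control the authors deposited a log2 difference only, in a file without a header. Its counts were recovered by inverting the transformation that links the deposited values and the control counts: they came within 0.01 of a whole read for 100% of 18275 genes matched by symbol, and 3.31% did when 1 read was added to control. A further 12 genes were placed by whole reads. A deposited table of both treated libraries held 7 genes, none of the set. Of the gene IDs, 17878 had the same version and position in GENCODE M21 (GRCm38).

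Size factors were medians of ratios over the 3 libraries, with a pseudocount of 10 and a log2 limit of 1 (alternatively 0.5). No model was fitted, since each group holds 1 library. edgeR 4.0.16 in R 4.3.3 gave TMM factors as an alternative; other steps used Python 3.11.15 with numpy 2.4.6, pandas 2.3.3, scipy 1.17.1 and matplotlib 3.10.9. The steps were tested on simulated data. All genes of the set are named; of each other list, those past the limit in any comparison, at most 6, with Eif2ak3 and the markers named besides. The genes, lists and limits were chosen with earlier results of these data known. Protein sequences were not used here.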

Additional observations from a re-analysis of the deposited data

How the results depend on the processing

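No paired analysis was possible because each group holds 1 library, and for the same reason no library could be left out. Of the single log2 ratios of the 39 genes under the alternatives, 491 moved by less than their counting interval, 94 moved by more and 0 changed sign past the limit. The number of the 39 genes past the limit was 8 after glucose oxidase, 15 after the combined treatment and 4 between the treated libraries at a limit of 0.5, and 9, 12 and 2 at that limit with total-count scaling, a setting chosen after seeing the data, as were the recounts with that scaling of the counting intervals and of the order of the libraries. With a pseudocount of 100 it was 2 after the combined treatment, Atf6 and Ero1l. With total-count scaling the number was unchanged at 4, but Calr entered and Ero1lb left. The set's median after the combined treatment was -0.050 with total-count scaling and 0.012 over genes with no shared stretch, and between the treated libraries it was 0.0089 with total-count scaling. The number of all genes past the limit moved more. After glucose oxidase (2317) it was 4243 and 826 with pseudocounts of 1 and 100, 734 on the deposited scale, 6175 at a limit of 0.5, 1407 at a mean count of 50 or more, 952 without shared stretches and 1235 among protein-coding genes. After the combined treatment (2688) it was 4494 and 1373 with those pseudocounts, 1768 on the deposited scale, 7332 at 0.5 and 1744 without shared stretches. Between the treated libraries (1563) it was 3311 and 358, 43 on the deposited scale, 4670 at 0.5, 788 at a mean count of 50 or more, 339 without shared stretches and 441 among protein-coding genes. Where no cause follows from the smaller gene set or the limit itself, the cause was not tested. Counting error left 6 of the 39 genes unseparated from control after glucose oxidase and 2 after the combined treatment, and was widest for Derl3, Ero1lb and Pdia5.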
